A study of Mus musculus with 10 samples.

Results

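The genes described here encode the immunoglobulin chains and the B cell receptor, with 2 factors that set up the B lineage. They are Ighm, Igkc, Igha, Jchain, Cd79a, Cd79b, Igll1, Pax5 and Ebf1, 9 of the 52171 genes in the deposited table, found there by symbol. They were chosen on the measured difference between the study's 2 groups in these libraries, so their own values are given as a description, with no test. RNA-seq was made from leukemia stem cells of mouse bone marrow, sorted as cells without lineage markers and Sca-1 and with c-Kit, CD16/32 and CD34. The mice of both groups had acute myeloid leukemia caused by the MLL-AF9 fusion gene. The 5 control libraries came from Nup214fl/+ mice, with 1 loxP-flanked copy of Nup214, a nuclear pore gene, and no Cre. The 5 heterozygous libraries came from Nup214fl/+,Tie2-Cre mice, in which Cre recombinase is driven by the Tie2 promoter, active in endothelial and hematopoietic cells. The heterozygous group alone carries Cre, so effects of Cre and of the lost allele cannot be told apart. Neither the age of the mice nor whether each library is a separate mouse is stated in the labels, so a p-value here reflects the spread among libraries, which may be technical.

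A B cell joins V, D and J gene segments into a heavy chain gene and V and J segments into a light chain gene. The heavy chain is first made with the mu constant region, encoded by Ighm, and is later switched to gamma, alpha or epsilon regions in some cells. Each receptor pairs heavy chains with kappa or lambda light chains and signals through the CD79A and CD79B proteins. Plasma cells secrete the same chains, and the joining chain, from Jchain, links IgM and IgA into polymers. Ighm can also be transcribed from its germline locus without a joined V segment. Myeloid leukemia cells are not of the B lineage, and the sort removes cells that carry lineage surface markers.

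V segments, which B cells join upstream of the constant genes, were also read in these libraries, though the table does not show which reads came from joined genes. Shown here are the last 90 bases of 4 V segment exons, 5′ to 3′ on the coding strand, from GENCODE M21 on GRCm38. The first pair led the heavy and kappa V reads of heterozygous libraries 3, 4 and 5. The second pair was prominent in control library 5. Capitals mark the codon of the conserved cysteine that precedes the antigen-contacting loop of the joined gene, found as the end of TAC or TAT followed by a codon for tyrosine or phenylalanine and a cysteine codon. These 4 were chosen after their values were seen.
Ighv11-2, chr12:114048241-114048330, minus strand: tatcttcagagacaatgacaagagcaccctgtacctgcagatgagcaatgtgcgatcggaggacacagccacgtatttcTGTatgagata
Igkv14-126, chr6:67896553-67896642, plus strand: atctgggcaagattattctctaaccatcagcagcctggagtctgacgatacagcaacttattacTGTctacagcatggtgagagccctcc
Ighv5-16, chr12:113838526-113838615, minus strand: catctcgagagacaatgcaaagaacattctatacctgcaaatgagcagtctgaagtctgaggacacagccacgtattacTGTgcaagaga
Igkv4-59, chr6:69438218-69438307, minus strand: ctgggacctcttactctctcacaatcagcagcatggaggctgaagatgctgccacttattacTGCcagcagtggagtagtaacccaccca

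Values are reads normalized by 1 factor per library, and libraries are numbered as in their labels. Nup214 itself was 906 ± 69.8 normalized reads in the controls against 484 ± 83.1 in heterozygous libraries (SD, n = 5 each). Its log2 fold change was -0.92 (SE 0.13), with an adjusted p of 0.00144 by limma, and every heterozygous library, at 376 to 602, was below every control, at 811 to 984. Sequencing gave 20.8 to 30.1 M reads per control library and 24.6 to 39.1 M per heterozygous library, so 3 reads correspond to 2.38 to 4.61 normalized reads. Heterozygous libraries 3, 4 and 5 stood apart from the other 7 in globin and mature neutrophil genes. Hba-a1, an alpha globin gene with a near-identical copy that may share its reads, was 801, 939 and 824 in them and at most 31.1 elsewhere. Retnlg, a product of mature neutrophils, was 4218, 747 and 43005 in them and at most 18.3 elsewhere. Values without libraries 3, 4 and 5, or without libraries 1 and 2, are therefore given below where they end a call of a named gene, and for the more abundant of the 9 genes. In bulk RNA, fewer cells of a type and less RNA per cell cannot be told apart.

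The heavy chain gene Ighm (chr12:113418558-113422730, minus strand, GRCm38) was the most abundant of the 9 and was higher in every heterozygous library. In control libraries 1 to 5 it was 4178, 3351, 4153, 3811 and 5429 normalized reads. In heterozygous libraries 1 to 5 it was 8299, 9013, 17408, 27694 and 29127. The groups did not overlap, and libraries 1 and 2 lay between the controls and libraries 3 to 5. Group means were 4185 ± 772 and 18308 ± 9906 (SD, n = 5 each), and the log2 difference, on the log2(value + 1) scale used throughout, was 1.95. It was 1.07 without libraries 3, 4 and 5 and 2.55 without libraries 1 and 2. Of the 22458 genes that passed the filter on low values, 4.64% had every heterozygous library above every control, and 6.67% every heterozygous library below. Among the 9 genes, all of which passed that filter, Ighm was the 1 of the first kind, Cd79b was the 1 of the second kind, and 7 overlapped. These counts repeat the contrast in which the genes were chosen.

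The kappa light chain constant gene Igkc (chr6:70726435-70726966, plus strand) was high in some heterozygous libraries and not in others. It was 0, 38.8, 4.69, 52.2 and 320 normalized reads in controls 1 to 5 and 9.54, 31.9, 3253, 7411 and 8149 in heterozygous libraries 1 to 5. Heterozygous libraries 1 and 2 lay within the range of the controls, and libraries 3 to 5 lay above all others. The log2 difference was 4.81 with all libraries, 8.13 without libraries 1 and 2, and -0.16, of opposite sign, without libraries 3, 4 and 5. Igkc and Ighm did not keep one ratio. For each 100 normalized reads of Ighm there were 0, 1.16, 0.113, 1.37 and 5.89 of Igkc in the controls. In the heterozygous libraries there were 0.115, 0.354, 18.7, 26.8 and 28.0. Libraries 1 and 2 therefore had more Ighm than any control without more Igkc relative to it.

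**Figure D1:**
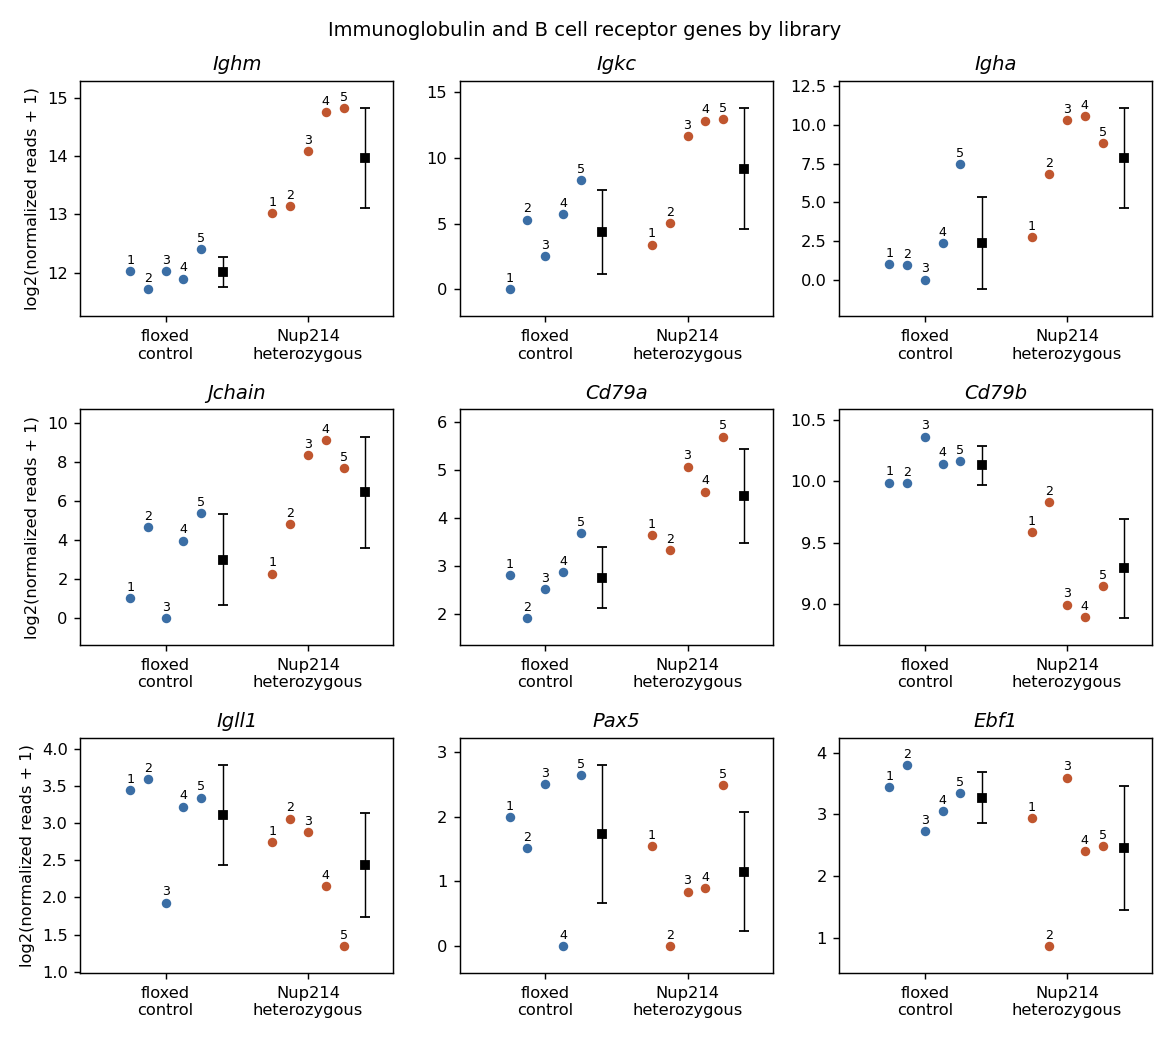
Each panel plots one gene as log2(normalized reads + 1), with its own vertical range, in the 5 floxed control (blue) and 5 Nup214 heterozygous (orange) libraries, numbered by replicate; black squares and bars are the mean and SD of the log2 values. Ighm separates the groups upward and Cd79b downward, whereas Igkc, Igha and Jchain are high in heterozygous libraries 3, 4 and 5, from 204 to 8149 normalized reads.

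Lambda light chain genes stayed rare. The kappa share of light chain constant reads was 99.3% (95% Wilson interval 99.0 to 99.5), 99.7% (99.6 to 99.8) and 99.8% (99.6 to 99.9) in heterozygous libraries 3, 4 and 5, over 4128, 8641 and 5313 reads. Such intervals cover counting error only, since amplified copies cannot be told from separate molecules. Control library 1 had no Igkc read among 6 light chain reads, so its share could be up to 39.0% by the Wilson bound. Lambda V reads were mostly of Iglv1, at 22, 25 and 9 reads in heterozygous libraries 3, 4 and 5 and 5 reads in control 5. No lambda V read was seen in the other 6 libraries.

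Reads of the alpha and gamma constant genes, which switched heavy chains use, differed from library to library. These are reads of constant genes, and germline transcripts of an unswitched gene are not told apart from switched ones. Igha (chr12:113254830-113260236, minus strand), which encodes the alpha region of IgA, was 0.992, 0.924, 0, 4.17 and 176 normalized reads in the controls. In heterozygous libraries it was 5.73, 113, 1274, 1527 and 461. The highest control exceeded 2 heterozygous libraries, so the groups overlapped. The log2 difference was 5.51, with 2.44 left without libraries 3, 4 and 5 and 7.56 without libraries 1 and 2. Heterozygous library 2 had 113 of Igha beside 31.9 of Igkc, whereas libraries 3 to 5 had more Igkc than Igha.

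Among the gamma constant genes, Ighg2b was 202 in control 5, 346 in heterozygous library 3 and 1674 in library 5, and at most 6.02 elsewhere. Ighg2c was 644 in heterozygous library 4 and 394 in library 5, and at most 2.09 elsewhere. Ighg3 was 363 in library 5 and at most 4.96 in any other library. The gamma genes are similar copies, so their reads may be partly split among them. Summed, the gamma, alpha and epsilon constant genes made 0.113 to 0.261 per 100 Ighm in controls 1 to 4 and 7.09 in control 5. They made 0.161, 1.27, 9.32, 7.87 and 9.93 in heterozygous libraries 1 to 5. Control 5 thus lay just below heterozygous libraries 3 to 5 in this ratio, while its Ighm, the highest of the controls, stayed below every heterozygous library.

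Jchain (chr5:88519809-88527891, minus strand), the joining chain of polymeric IgM and IgA, was 0.992, 24.0, 0, 14.6 and 40.6 normalized reads in the controls. It was 3.82, 27.0, 329, 568 and 204 in the heterozygous libraries. Libraries 3 to 5 exceeded every control, and libraries 1 and 2 lay inside the control range. The log2 difference of 3.46 became 0.54 without libraries 3, 4 and 5 and 5.404 without libraries 1 and 2.

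**Figure D2:**
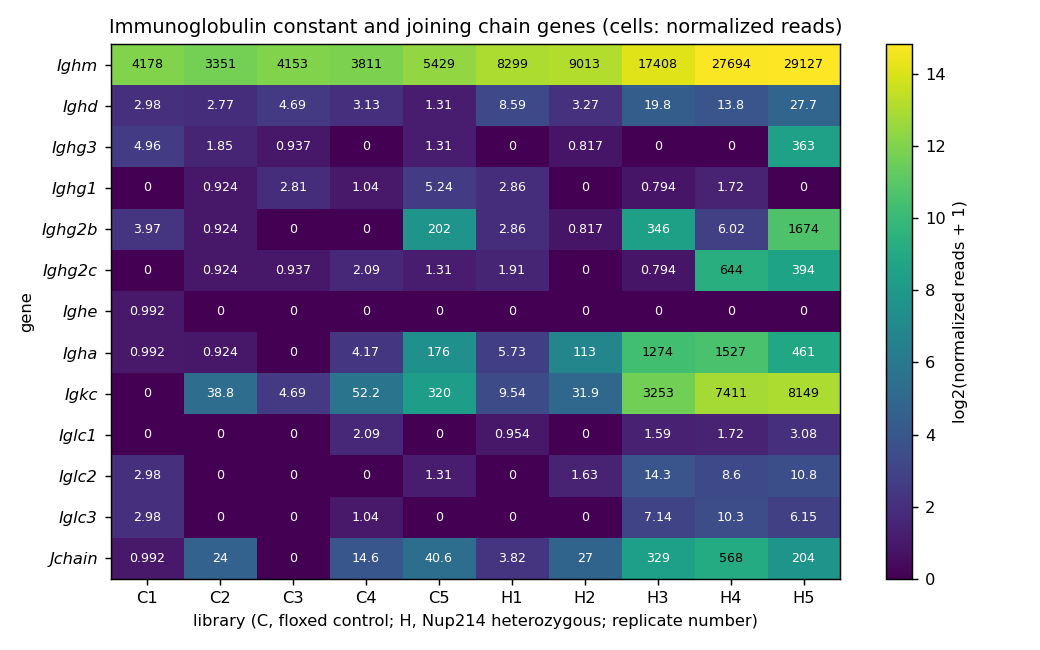
Each cell gives the normalized reads of one gene (vertical axis) in one library (horizontal axis; C, floxed control; H, Nup214 heterozygous), coloured by log2(normalized reads + 1). Ighm is high in every column, whereas Igkc passes 1000 only in H3, H4 and H5. The highest gamma gene is Ighg2b in C5, H3 and H5 and Ighg2c in H4.

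Reads on V segments were counted next, as a description, and whether they came from joined genes was not measured. Ighv reads per 100 Ighm reads were 1.69, 2.29, 1.56, 2.11 and 2.73 in the controls. They were 0.437, 0.499, 2.39, 2.36 and 6.002 in the heterozygous libraries, lowest in libraries 1 and 2, where Ighm was above every control. These ratios include the V pseudogene Ighv1-41, described below. It made 67.5% to 84.1% of Ighv reads in controls 1 to 4. In heterozygous libraries 3, 4 and 5 it made 5.53%, 2.37% and 2.20%. The ratio without Ighv1-41 was not computed, so values inside the control range in libraries 3 and 4 do not describe the other V segments. In absolute terms libraries 1 and 2 had 38 and 55 Ighv reads, below the 69 to 113 of the controls, and libraries 3, 4 and 5 had 524, 759 and 1137. Igkv reads, like Igkc, were most numerous in libraries 3, 4 and 5, with 1344, 1856 and 1721 against 7 to 111 in the controls and 14 and 26 in heterozygous libraries 1 and 2. Their ratio to Igkc was not constant. Igkv reads per 100 Igkc reads were 90.5, 140.0, 58.0 and 45.5 in controls 2 to 5, and 140.0 and 66.7 in heterozygous libraries 1 and 2, over at most 244 Igkc reads. They were 32.8, 21.5 and 32.5 in libraries 3, 4 and 5. Control 1 had 14 Igkv reads with no Igkc read.

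Most Ighv reads outside the high libraries came from 1 segment. Ighv1-41 (chr12:114932371-114932782), annotated as a V pseudogene, was 48.6, 59.1, 54.4, 54.3 and 45.8 normalized reads in the controls and 27.7, 31.1, 23.0, 15.5 and 38.4 in the heterozygous libraries. It made 67.5% to 84.1% of Ighv reads in controls 1 to 4, 31.0% in control 5, and 76.3% and 69.1% in heterozygous libraries 1 and 2. In libraries 3, 4 and 5 it was 5.53%, 2.37% and 2.20%. Its level did not follow the rise of the other V segments.

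The number of V segments with at least 3 reads was 1 to 4 for Ighv in the controls, 1 and 2 in heterozygous libraries 1 and 2, then 10, 16 and 14 in libraries 3, 4 and 5, of 183 in the table. For Igkv it was 0 to 3, then 1 and 2, then 8, 17 and 11, of 160. Libraries 3, 4 and 5 shared only part of these. Libraries 3 and 4 had 4 Ighv segments in common, 40.0% of the 10 and 25% of the 16, and 3 Igkv segments. Libraries 3 and 5 had 6 Ighv segments in common, 60.0% and 42.9% of their lists, and 4 Igkv segments, 50% and 36.4%. Libraries 4 and 5 also had 6 Ighv segments in common, 37.5% and 42.9% of their lists, and 4 Igkv segments, 23.5% and 36.4%.

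One heavy and one kappa segment led in all 3 of these libraries. Ighv11-2 made 26.9% (95% Wilson interval 23.3 to 30.9), 20.03% (17.3 to 23.0) and 42.7% (39.9 to 45.6) of Ighv reads in heterozygous libraries 3, 4 and 5. It was 112, 131 and 747 normalized reads there, 1 read in control 5, and 0 in the other 6 libraries. Igkv14-126 made 40.9% (38.3 to 43.6), 18.8% (17.1 to 20.6) and 70.9% (68.7 to 73.0) of Igkv reads in the same libraries. It was 436, 300 and 1876 normalized reads there and was not read in the other 7 libraries. With 7 to 111 Igkv reads in each of those 7, the upper Wilson bound on its share ran from 3.35% to 35.4%. As background, antibodies that pair these V segments are known in mice as phosphatidylcholine binders made by B-1a cells. Ighv12-3 and Igkv4-91, another pair looked up with this background in mind, had no read in any library. Whether the heavy and light chains were paired in single cells here was not measured.

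Other leading segments differed between libraries. In control 5, Igkv4-59 made 65.8% (56.5 to 73.9) of Igkv reads, and Ighv5-16 made 23.9% (17.0 to 32.5) of Ighv reads, behind Ighv1-41. Igkv4-59 was also 10.6% of Igkv reads in heterozygous library 4, and Ighv5-16 was 16.0% of Ighv reads in library 3. Igkv10-96 led in control 2 with 23 of 38 Igkv reads and made part of heterozygous library 3 with 213 of 1344. Igkv15-103 led in control 4 with 19 of 29 reads and was the second in heterozygous library 4 with 313 of 1856. V segments within a family are similar in sequence, so reads may be split between neighbours.

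**Figure D3:**
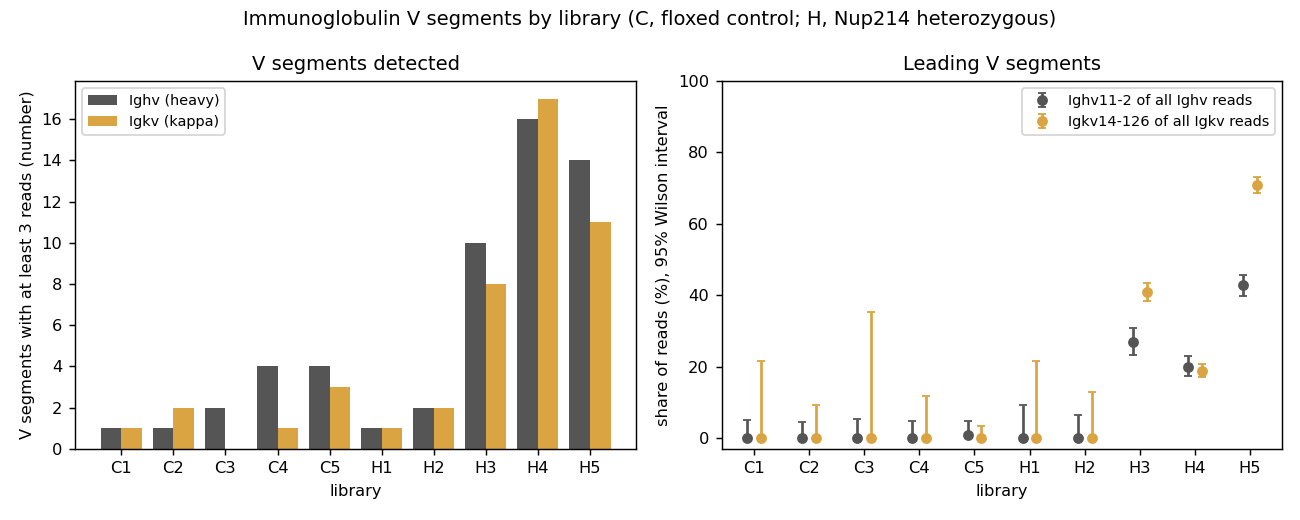
The left panel gives the number of heavy (Ighv) and kappa (Igkv) V segments with at least 3 reads in each library, and the right panel the percent of all Ighv or Igkv reads held by Ighv11-2 and Igkv14-126, with 95% Wilson intervals. Both segments are at or near 0 in the controls and in H1 and H2, with wide intervals where few V reads exist, and lead in H3, H4 and H5.

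The receptor's signaling chains moved apart from each other. Cd79a (chr7:24897381-24902197, plus strand), which encodes the CD79A chain, was low throughout, at 5.95, 2.77, 4.69, 6.26 and 11.8 normalized reads in the controls and 11.5, 8.99, 32.5, 22.4 and 50.7 in the heterozygous libraries. The groups overlapped at control 5, and the counts behind these values were 3 to 9 reads in the controls against 11 to 41 reads in heterozygous libraries. Means were 6.29 ± 3.37 and 25.2 ± 17.1 (SD, n = 5 each), a log2 difference of 1.70, or 0.73 without libraries 3, 4 and 5.

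Cd79b (chr11:106311341-106314762, minus strand), which encodes the partner chain CD79B, was abundant in the controls and lower in every heterozygous library. It was 1016, 1014, 1319, 1132 and 1146 normalized reads in controls 1 to 5 and 768, 911, 509, 474 and 564 in heterozygous libraries 1 to 5. Libraries 3 to 5, which had the highest Ighm, Igkc and Cd79a, had the lowest Cd79b. The log2 difference was -0.84, and -0.42 without libraries 3, 4 and 5. In normalized reads, Cd79b exceeded Cd79a 97.2-fold to 366-fold in the controls and 67.1, 101, 15.6, 21.2 and 11.1-fold in the heterozygous libraries. Both genes have exons of similar total length, 1457 and 1431 bases, so this ratio is little affected by length.

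The genes of early B cells were near the limit of detection. Igll1 (chr16:16860671-16863985, minus strand), which encodes the lambda5 part of the surrogate light chain of pre-B cells, was 9.92, 11.1, 2.81, 8.35 and 9.17 in the controls and 5.73, 7.36, 6.35, 3.44 and 1.54 in the heterozygous libraries. Pax5 (chr4:44524757-44710487, minus strand), the factor that keeps cells committed to the B lineage, was 2.98, 1.85, 4.69, 0 and 5.24, then 1.91, 0, 0.794, 0.860 and 4.61. It had at most 5 reads in any library. Ebf1 (chr11:44617317-45008091, plus strand), which specifies the lineage ahead of Pax5, was 9.92, 12.9, 5.62, 7.31 and 9.17, then 6.68, 0.817, 11.1, 4.30 and 4.61. It had at most 14 reads in any library. The groups overlapped for all 3, and no library with high Igkc stood out in Pax5 or Ebf1. Log2 differences were -0.67, -0.58 and -0.82, and under quantile normalization they were 0.09, 0.16 and -0.16, so the sign of the first pair depended on scaling.

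Ordered by normalized reads per kilobase of exon, the control means ran from Ighm at 2219, through Cd79b at 786 and Igkc at 156, to Igha at 13.6, Jchain at 6.38, Cd79a at 4.32, Igll1 at 3.82, Ebf1 at 0.922 and Pax5 at 0.333. The single control 5 carried most of the Igkc and Igha means, and among controls the ranges of Igkc, Igha, Jchain, Cd79a and Igll1 overlapped. In heterozygous libraries the mean of Ighm was 9707 and that of Igkc 7088 per kilobase, ahead of Cd79b at 451, Igha at 253, Jchain at 89.97 and Cd79a at 17.3. Igll1, Ebf1 and Pax5 kept the last places at 2.26, 0.564 and 0.185. This order pools unlike libraries: in heterozygous libraries 1 and 2, Igkc was 17.9 and 59.9 per kilobase, behind Cd79b at 537 and 637.

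The promoter windows of Cd79a and Igll1 are shown as those of a B cell receptor gene and a pre-B cell gene that were both low here. Their log2 differences were 1.70 and -0.67, and that of Igll1 was 0.09 under quantile normalization. Both are early B lineage genes known to be activated by E proteins and EBF1. Each window runs from 250 bases before to 50 after the start in RefSeq on GRCm38.p6, and capitals mark the E-box CANNTG. The choice was made after the values were seen.
Cd79a, chr7:24897247-24897546, plus strand: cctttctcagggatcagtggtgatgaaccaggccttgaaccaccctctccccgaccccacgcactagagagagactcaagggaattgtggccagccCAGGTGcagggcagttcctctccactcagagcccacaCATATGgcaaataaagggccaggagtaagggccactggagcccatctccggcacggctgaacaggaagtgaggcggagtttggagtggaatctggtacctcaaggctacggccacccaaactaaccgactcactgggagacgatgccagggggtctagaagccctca
Igll1, chr16:16863936-16864235, minus strand: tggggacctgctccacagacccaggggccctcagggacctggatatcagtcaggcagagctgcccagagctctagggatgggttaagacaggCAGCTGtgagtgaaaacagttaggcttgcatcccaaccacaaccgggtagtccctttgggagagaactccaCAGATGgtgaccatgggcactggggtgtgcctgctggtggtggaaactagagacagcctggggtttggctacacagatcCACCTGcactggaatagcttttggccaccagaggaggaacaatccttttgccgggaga
The Cd79a window held 2 E-boxes, the Igll1 window 3 and that of Jchain 4. Of 6 windows found for 5 of the 9 genes, 5 held CANNTG, as did 72.3% of the 32851 windows in the table. No window of the 5 genes held the palindromic EBF consensus, TCCC and GGGA with any pair of bases between, or, on either strand, the octamer ATTTGCAT, which occurred in 0.904% and 1.74% of all windows. Sites that depart from these exact sequences were not sought, so their absence is not shown. CANNTG and the EBF consensus read the same on both strands, and an E-box can overlap the octamer. Windows for Cd79b, Ighm, Igkc and Igha were not used here.

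Lists of other B lineage genes put these values in context, 112 genes in all, of which 106 passed the filter. By limma with Benjamini-Hochberg adjustment over all 22458 genes, 7 of the 106 were higher in heterozygous libraries (6.60%) and 4 lower (3.77%). Over all tested genes 5.0% were called higher and 8.01% lower, so the share of B lineage genes called higher was near the background and the share called lower was below it. Their log2 fold changes had a median of 0.13, and those of all tested genes a median of -0.19. The split of heterozygous libraries into 1 and 2 against 3, 4 and 5 was made after their values were seen. Calls in fits that use this split are given as a description. Without libraries 1 and 2, 19 of 101 were higher (18.8%) and 7 lower (6.93%), where 9.91% and 12.5% of all tested genes were called. Without libraries 3, 4 and 5, 13 of 89 were higher (14.6%) and 10 lower (11.2%), where 8.39% and 9.31% of all were called. The share called higher was thus above that of all tested genes in both fits, but different lists made it up. Without libraries 1 and 2, 7 of 24 receptor signaling, 5 of 19 surface and identity and 3 of 4 other constant genes were higher. Without libraries 3, 4 and 5, 7 of the 13 were plasma cell and secretion genes. In that fit 0 of 13 surface and identity genes and 0 of 1 constant gene were higher. The counts depended on single libraries: the count called higher was 1 or 2 when any 1 control, or heterozygous library 4 or 5, was left out, where 2.58% to 4.04% of all tested genes were called higher. The count called lower was 1 or 2 when any 1 control or heterozygous library 5 was left out, where 2.29% to 5.82% of all were called lower. Calls over all genes thus fell in the same fits.

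Among other immunoglobulin constant genes, 1 of 6 tested genes rose and none fell. That gene, Ighd, encodes the delta chain of mature naive B cells. It was 1.31 to 4.69 normalized reads in the controls and 8.59, 3.27, 19.8, 13.8 and 27.7 in the heterozygous libraries, with a log2 fold change of 1.76 (SE 0.50) and an adjusted p of 0.0375 by limma. It was 0.74 with an adjusted p of 0.40 without libraries 3, 4 and 5. The limma adjusted p was also above 0.05 without a filter (0.0611), with a pseudocount of 0.1 (0.0560), under upper quartile scaling (0.0544), with a replicate block (0.0648), and on leaving out any 1 control (0.0510 to 0.0860) or heterozygous library 3, 4 or 5 (0.0689 to 0.0809).

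Of 13 tested genes for the surrogate light chain and V(D)J recombination, 1 rose and none fell. Xrcc4, a general DNA end-joining factor also used in recombination, was 135 ± 14.0 in the controls against 193 ± 26.0 in heterozygous libraries (SD, n = 5 each; log2 fold change 0.51, SE 0.14, limma adjusted p 0.0357). Rag1, which encodes the recombinase that cuts V(D)J segments, was 0.937 to 11.8 in the controls against 0.817 to 6.02 in heterozygous libraries, and was named after its values were seen. Its limma adjusted p was 0.305.

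No gene of 20 tested B cell surface and identity genes passed the limma threshold. At an unadjusted p under 0.05, 3 were higher and 1 lower, and edgeR called 0 of the 7 it fitted. Without heterozygous libraries 1 and 2, limma called 5 of 19 higher (26.3%) and 0 lower. Over all genes tested in that fit, the shares were 9.91% higher and 12.5% lower. Without libraries 3, 4 and 5, limma called 0 of 13 higher and 1 lower (7.69%), against 8.39% and 9.31% of all genes. Cd24a, a surface protein of immature hematopoietic cells as well as B cells, was 17752 to 20870 in the controls against 5907, 18069, 22632, 23047 and 26892 in the heterozygous libraries. Cd37, a tetraspanin of B and myeloid cells, was 5152 to 7814 and 3469 to 6483. These abundant genes did not separate the groups. Cd24a was the 1 gene called lower without libraries 3, 4 and 5 (log2 fold change -0.92, limma adjusted p 0.0386). Of the heterozygous libraries left in that fit, library 1 was at 5907 and library 2 lay inside the control range.

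Less abundant B cell markers did not move as 1 group, and those given here were named after their values were seen. Ly6d and Bank1 were highest in heterozygous libraries 3 to 5, whereas Fcer2a, Ms4a1 and Blk did not separate these libraries from the others. Ly6d, a marker of B cell commitment, was 0.992 in control 1, 17.5, 12.04 and 19.99 in heterozygous libraries 3, 4 and 5, and 0 in the other 6 libraries. Bank1, a B cell adaptor, was 31.7 to 43.8 in the controls and 20.99, 17.98, 186, 142 and 175 in the heterozygous libraries. Fcer2a, a low-affinity IgE receptor, was 3.97 to 8.35 in the controls and 1.91, 1.63, 7.14, 5.16 and 0 in the heterozygous libraries. Ms4a1, which encodes CD20, was 3.13 to 16.9 in the controls and 3.82, 1.63, 23.8, 6.88 and 7.69 in the heterozygous libraries. Blk, a Src family kinase of B cells, was 0.924 in control 2, 0.794 in heterozygous library 3 and 0 in the other 8 libraries. Of the 22 listed genes, 12 to 15 had at least 3 reads in a control library, 11 and 12 in heterozygous libraries 1 and 2, then 20, 19 and 18 in libraries 3, 4 and 5. Over all 22, the mean log2(value + 1) was 3.66 to 4.25 in the controls and 3.41 and 3.59 in heterozygous libraries 1 and 2. It was highest in libraries 3, 4 and 5, at 5.28, 4.66 and 4.79.

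Signaling genes of the receptor were mostly expressed in all libraries, and 2 of 24 rose while 2 fell. Bcl10, which links antigen receptors to NF-kB, was 769 ± 42.3 in the controls against 1262 ± 87.5 in heterozygous libraries (log2 fold change 0.71, SE 0.10, limma adjusted p 0.00103), and 0.72 without libraries 3, 4 and 5. Lyn, a Src family kinase of B and myeloid cells, was 2409 ± 129 and 3785 ± 1018 (0.61, SE 0.17, limma adjusted p 0.0324), and 0.18 with an adjusted p of 0.276 without those libraries. Cd81, a tetraspanin that many cells express, was 10578 ± 1139 and 5398 ± 836 (-0.98, SE 0.13, limma adjusted p 0.000905). Bcl2a1b, an antiapoptotic gene, was 55.8 ± 20.1 and 20.7 ± 9.48 (-1.44, SE 0.37, limma adjusted p 0.0271), but it has near-identical copies that may share its reads. SDs are over 5 libraries each.

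Of 24 other transcription factors of B lineage development, none rose and 1 fell. Erg, an ETS factor of hematopoietic stem cells, was 157 ± 44.5 in the controls against 92.3 ± 22.2 in heterozygous libraries (SD, n = 5 each; log2 fold change -0.75, SE 0.21, limma adjusted p 0.0359).

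Of 20 plasma cell and secretion genes, 3 rose and 1 fell by limma, all with adjusted p between 0.0342 and 0.0475. edgeR called 0 of the 12 it fitted, and limma without a filter called 0 of 20. Without heterozygous libraries 3, 4 and 5, limma called 7 of 18 higher (38.9%) and 0 lower, against 8.39% and 9.31% of all genes. Without libraries 1 and 2, it called 2 of 19 higher and 2 lower, against 9.91% and 12.5%. The summed level was 49133 to 59425 in the controls and 88258, 81138, 50957, 68182 and 70254 in the heterozygous libraries. The mean log2(value + 1) of each heterozygous library lay within the control range, 6.79 to 7.40. Mzb1, a chaperone of immunoglobulin in the endoplasmic reticulum, was at most 2.62 in the controls and 2.86, 2.45, 19.8, 8.60 and 9.23 in the heterozygous libraries (log2 fold change 2.07, SE 0.58, limma adjusted p 0.0342). Xbp1, a regulator of secretory capacity in many cells, was 11783 ± 1950 and 16429 ± 1892 (0.49, SE 0.14, adjusted p 0.0395). Creld2, an endoplasmic reticulum stress gene, was 1366 ± 194 and 1955 ± 416 (0.50, SE 0.15, adjusted p 0.0404). Fkbp11, a secretory prolyl isomerase, was 192 ± 32.3 and 107 ± 47.9 (-0.96, SE 0.30, adjusted p 0.0475). Their names notwithstanding, Xbp1 and Creld2 were highly expressed in all 10 libraries. By edgeR the adjusted p was 0.0607 for Xbp1, 0.0598 for Creld2 and 0.0641 for Fkbp11, and Mzb1 was not fitted. Under upper quartile scaling the signs of Xbp1, Creld2, Lyn and Xrcc4 turned.

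Several of these calls were lost when part of the libraries was left out, some with a smaller log2 fold change and some with one about as large. Without heterozygous libraries 3, 4 and 5, Fkbp11 was -0.32 (limma adjusted p 0.256) and Xrcc4 0.35 (0.178), both smaller. Erg was -0.71 (0.0559) and Xbp1 0.48 (0.0515), close to their values with all libraries, and Mzb1 did not pass the filter. Without libraries 1 and 2, Bcl2a1b was -0.92 (0.0576) and Creld2 0.37 (0.0655). Bcl10 and Cd81 passed the threshold either way.

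**Figure D4:**
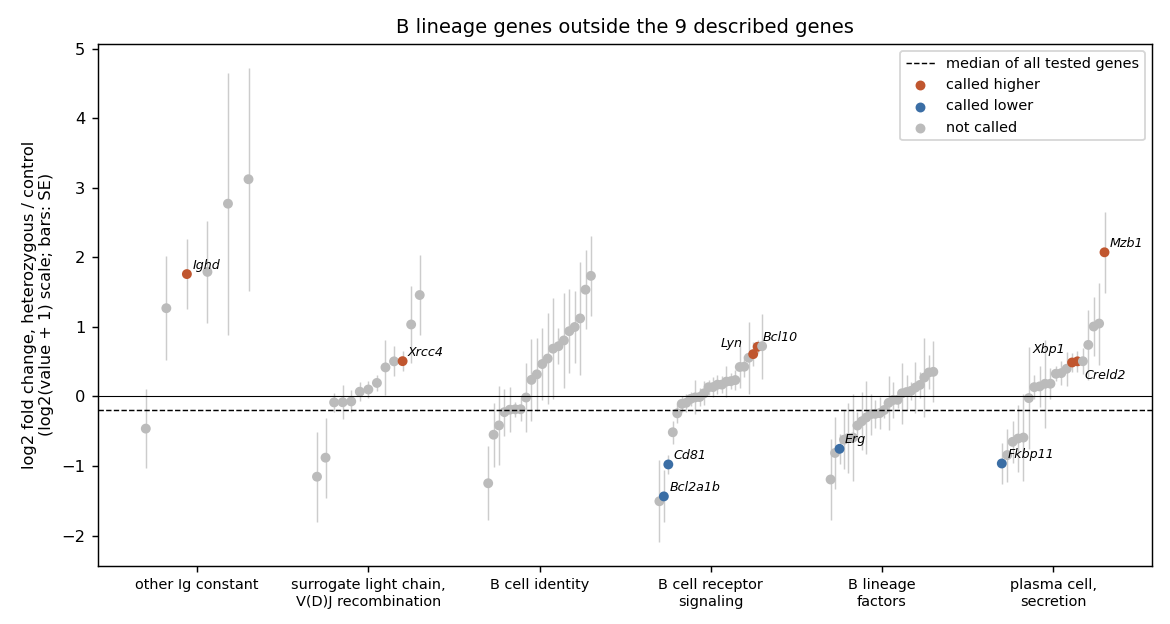
Points are the tested genes of 6 B lineage lists, sorted by log2 fold change (heterozygous over control, on the log2(value + 1) scale) with SE bars; orange and blue mark genes with a limma adjusted p under 0.05, and the dashed line is the median of all tested genes, -0.19. Of 106 genes 7 were called higher and 4 lower, and the low immunoglobulin constant genes have the widest errors.

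Markers of other cells were read beside these genes. Of 8 tested erythroid markers 2 rose by limma, Hba-a1 (log2 fold change 5.06, SE 1.42, adjusted p 0.0346) and Hbb-bt (4.74, SE 1.27, adjusted p 0.0294). Without heterozygous libraries 3, 4 and 5, Hba-a1 was 1.18 with a limma adjusted p of 0.445, and Hbb-bt did not pass the filter. The list's summed level was 23.1 to 85.3 in the controls, 6.68 and 118 in heterozygous libraries 1 and 2, then 2405, 2787 and 2292 in libraries 3, 4 and 5.

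No mature neutrophil marker of 10 tested was called by limma, although 2 were higher and 1 lower at an unadjusted p under 0.05 and edgeR called 3 higher. The summed level was 1101776 to 1617419 in the controls, 36115 and 89099 in heterozygous libraries 1 and 2, then 2111823, 1698016 and 3893151 in libraries 3, 4 and 5. S100a8, an alarmin of neutrophils, was 458551 to 688149 in the controls, 29004 and 70877 in libraries 1 and 2, then 951454, 908923 and 1589318 in libraries 3, 4 and 5. S100a9, its partner, was likewise lowest in libraries 1 and 2 and highest in libraries 3 to 5. Libraries 3 to 5, which had the highest Igkc, Igha and Jchain, were thus also the highest in the summed erythroid and neutrophil markers. The part of other cells in the immunoglobulin values was not tested.

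Of 8 tested T and natural killer cell markers none rose and 1 fell, Bcl11b, a T lineage factor (log2 fold change -2.20, SE 0.58, limma adjusted p 0.0286). Its limma adjusted p was above 0.05 under quantile normalization (0.0700), with a pseudocount of 0.1 (0.0907) and with a replicate block (0.0594). It was also above 0.05 on leaving out control 1, 2, 3 or 5 (0.0551 to 0.0708). In the other fits it was under 0.05, and by edgeR it was 0.0222. The defining genes of T cells were near 0, with Trac and Trbc1 at most 1.59 and Cd8a at most 1.54 in any library. The summed level, 26438 to 32536 in the controls against 26493, 40844, 5786, 9650 and 13583 in heterozygous libraries, was almost all Nkg7.

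Plasmacytoid dendritic cells, which share part of the B lineage program, were covered by 13 genes, of which 10 were tested, 1 rose and 3 fell by limma. Tcf4, the factor that defines these cells, was 628 ± 212 in the controls against 58.2 ± 27.8 in heterozygous libraries (log2 fold change -3.47, SE 0.30, adjusted p 4.45e-05). Runx2 (-0.58, adjusted p 0.0140) and Lair1 (-0.46, adjusted p 0.0193) were lower, and Bst2, also an interferon target, was higher (0.68, adjusted p 0.0248, negative under upper quartile scaling). Bst2 was 0.43 with a limma adjusted p of 0.0502 without libraries 1 and 2. Siglech, a surface receptor of these cells, was at most 7.86 in any library. The summed level was 3439 to 4144 in the controls against 2343, 2737, 2785, 2433 and 2686 in the heterozygous libraries.

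Of 10 genes of the sort gate and of immature myeloid cells, 2 rose and 2 fell by limma. Kit, the sorted receptor, was 2113 ± 427 in the controls against 1174 ± 360 in heterozygous libraries (-0.89, adjusted p 0.0184), lowest in library 5 at 673. Without heterozygous libraries 3, 4 and 5 it was -0.51, with a limma adjusted p of 0.0519. Ly6a, which encodes the Sca-1 antigen used to exclude cells, was also lower (-0.83, adjusted p 0.0339). The granule protease genes Prtn3 (0.73, adjusted p 0.0311) and Ctsg (0.73, adjusted p 0.0384) were higher. Prtn3 was 0.57 with a limma adjusted p of 0.0575 without libraries 3, 4 and 5, and Ctsg was 0.63 with 0.0674 without libraries 1 and 2. Myeloid genes of the gate were detected in all 10 libraries.

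**Figure D5:**
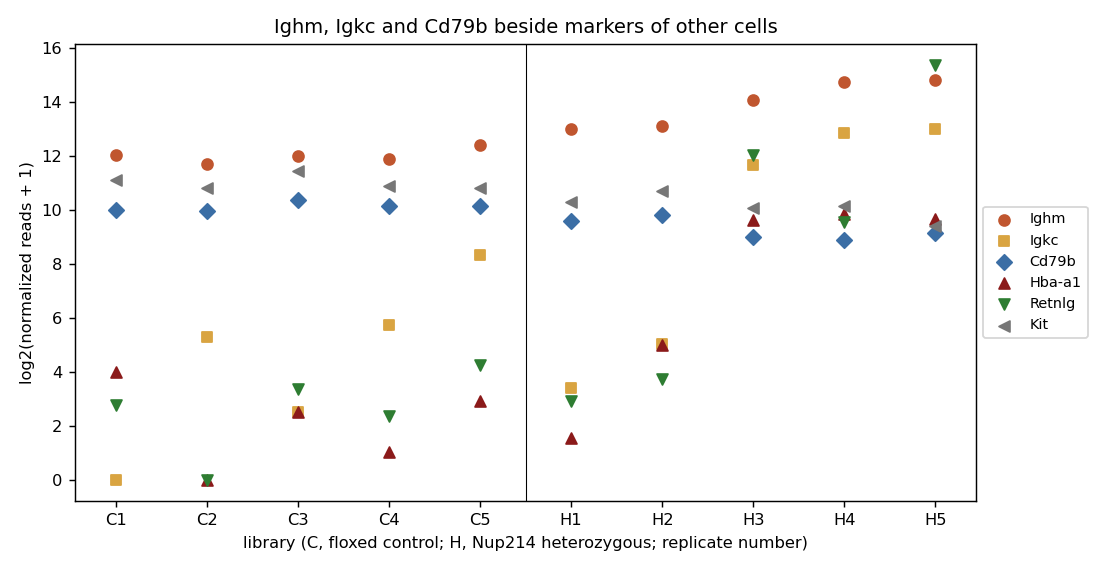
The vertical axis gives log2(normalized reads + 1) of 6 genes in each library (C, floxed control; H, Nup214 heterozygous). Igkc, the globin gene Hba-a1 and the neutrophil gene Retnlg are high in H3, H4 and H5, Ighm is above the controls in all 5 heterozygous libraries, and Cd79b and Kit are lower there.

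Genes whose levels most resembled those of each immunoglobulin or receptor gene were sought by Pearson correlation of log2(normalized reads + 1) over the 10 libraries, given as a description. The points share libraries and the group difference, so a high r need not hold within a group. Closest to Ighm were Cby1 (r = 0.99), Tmem50b (0.98) and Pld4 (0.98). Pld4, an endolysosomal exonuclease of dendritic and B cells, was 708, 444, 523, 638 and 644 in the controls against 2015, 1943, 4025, 5015 and 6135 in the heterozygous libraries. Tmem50b, a transmembrane protein gene, was 2513 to 2747 in the controls against 3739, 3662, 7825, 9378 and 8580 in the heterozygous libraries. Both, like Ighm, were higher in all 5 heterozygous libraries and highest in libraries 3 to 5.

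Closest to Igkc were Tspan9 (0.95), Osbpl1a (0.95) and Cib2 (0.94), and to Igha Dctn4 (0.96), Gbp6 (0.95) and Katnal1 (0.94). Jchain was nearest to Gpbp1 (0.96), Fam120a (0.96) and Dctn4 (0.95), and Cd79a to Ier3 (0.97), Rab23 (0.97) and Sgk1 (0.97). Cd79b was nearest to Pramel50 (0.98), Krt18 (0.98) and Bhlhb9 (0.98). Krt18, a keratin gene, was 104 to 262 in the controls against 54.4, 49.0, 14.3, 11.2 and 18.5 in the heterozygous libraries, so it had the same order of the groups as Cd79b.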

How the data were processed

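RNA-seq libraries of sorted leukemia stem cells were made by Geo-seq amplification and a TruePrep kit, per the labels' protocols, with no molecular identifiers or strand described. The submitters' processing notes name HTSeq, DESeq2, Cufflinks 2.1.1 and Bowtie 0.12.9 and the build mm10, without roles or order. The authors' deposited signal covers 52171 genes in 10 libraries. Each library's values are whole multiples of 1 step, so they are reads scaled by 1 number for each library (normalized reads). Division by that step returned reads that were whole to 0.01 for 100% of values above 0 in 8 libraries and at least 99.996% in the other 2. The step of control library 1 lies near 1, so its recovery could not be told from unscaled values by the step alone.

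The 9 genes and all lists were chosen with earlier results of these data known. The 9 genes and V segments got no test. Other genes were tested with limma 3.58.1 (intensity trend, R 4.3.3) on log2(normalized reads + 1) with no term beside group, for the 22458 genes with at least 1 normalized read in at least 5 libraries. Calls needed a Benjamini-Hochberg adjusted p under 0.05 over all of them. This scale understates changes of low genes. The table is named as FPKM, which its values are not, and the test used is that planned for a normalized unit. edgeR 4.0.16 on recovered reads was an alternative, beside other scalings, filters, a pseudocount of 0.1, a replicate block and left-out libraries. The tests were checked on simulated counts. Named genes were the 9, per list up to 4 called genes with the smallest adjusted p (with none called, the 2 most abundant), and for each of the 9 with a mean of at least 10 the 3 most correlated genes. Symbols were matched to GENCODE M21, where 49806 were found. No 2 libraries agreed within sampling noise. Some listed genes are not reported here by name, and they stayed in all fits and counts.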

Additional observations from a re-analysis of the deposited data

Results flagged for a closer look

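Among 104 groups of 5 libraries, over 52 genes, 4 had a library far from the other 4 of its group, where chance alone flags about 1 in 20. In control library 5, Igkc was 320 normalized reads with the nearest control at 52.2, and Igha was 176 with the nearest at 4.17. In the same library Tmem50b was 2747, with the nearest control at 2567. In control library 3, Erg was 234, with the nearest control at 154.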

How the results depend on the processing

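With all 10 libraries, 1122 genes were called higher and 1798 lower, and 7 and 4 of the other B lineage genes. Upper quartile scaling gave 204 and 11578 genes, and 1 and 39 B lineage genes. It divides by a quantile of the values above 0, which moves with the number of detected genes. Quantile normalization gave 517 lower genes and 2 lower B lineage genes. edgeR gave 808 lower genes and 3 higher B lineage genes. No filter gave 1119 lower genes and 2 higher B lineage genes, the stricter filter 1063 lower genes, and a pseudocount of 0.1 gave 1028 lower genes and 4 higher B lineage genes. Leaving out heterozygous libraries 1 and 2 gave 2098 higher genes, 19 higher and 7 lower B lineage genes. Leaving out libraries 3, 4 and 5 gave 1725 higher genes, 13 higher and 10 lower B lineage genes. Leaving out 1 library at a time gave 546 to 1308 higher and 484 to 2171 lower genes, and 1 to 10 higher and 1 to 5 lower B lineage genes. Over all genes, controls 1, 2, 3 and 5 each moved both counts by over 1.5 times, to 546 and 484, 697 and 927, 688 and 1045, and 638 and 648, and heterozygous library 5 moved the lower count to 1032. Apart from the scaling itself and the number of libraries and genes tested, the cause was not tested.

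A replicate block gave 703 higher and 945 lower genes and 2 higher B lineage genes. Same-numbered libraries correlated at -0.09 to 0.08 and 0 of 5 matched best with its own number, so no pairing by number was seen. The check could miss a pairing smaller than the differences among the heterozygous libraries. Signs turned under upper quartile scaling for Bst2 (-0.017), Creld2 (-0.19), Lyn (-0.087), Xbp1 (-0.21) and Xrcc4 (-0.18). They turned for S100a8 (1.06) and S100a9 (1.06) without heterozygous libraries 1 and 2. Over all genes the median log2 fold change was -0.19, -0.82 under upper quartile scaling, -0.02 under quantile normalization and 0.00 in edgeR. Of the 9 genes, 7 kept their sign under quantile normalization and all 9 under upper quartile scaling, where Ighm was 1.26 and Cd79b -1.54. Pax5, Ebf1, Igll1 and Cd79a rest on few reads, and small changes in them were not detectable at this depth.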
